A study of Mus musculus with 564 samples.

Results

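Histone acetylation was followed at 7 genes for secreted proteins of the acute-phase and antimicrobial response in mouse macrophages: Saa1, Saa2, Saa3, Lcn2, Slpi, Hp and Cp. A cis-regulatory element (CRE), a region counted around a peak of open chromatin, was taken as a member when its centre lay within 25 kb of a RefSeq transcription start of 1 of these genes on mouse genome build mm10. This gave 21 of 59190 CREs. Of these, 5 lay near Saa1, 5 near Saa2, 5 near Saa3, 5 near Lcn2, 4 near Hp, 2 near Cp and 1 near Slpi, and a CRE of the Saa cluster can count for several genes. Distance does not show which gene a CRE acts on, and several members were promoters of neighbouring genes.

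Bone marrow-derived macrophages (BMDMs), primary cells grown out of wild type bone marrow, were pre-treated for 1 h with 1 of 58 clinical kinase inhibitors (CKIs) or with their solvent, DMSO. They were then left unstimulated (UT) or given 10 ng/mL of lipopolysaccharide (LPS), the bacterial ligand of TLR4, or 10 ng/mL of interleukin 4 (IL-4), the cytokine of alternative activation, for 30 min, 1 h, 2 h or 4 h. ChIP-seq for H3K27ac, the acetylation of lysine 27 on histone H3 found at active promoters and enhancers, gave 18 DMSO libraries (9 groups with 2 replicates each) and 546 CKI libraries. Each CKI was used at its own effective concentration for its intended target, so doses differ between CKIs, and 474 of 510 CKI groups held 1 library. All cells carry the same wild type genotype, which the methods of the study give as male C57/BL6 mice. Nothing in the sources used here says whether the 2 replicates of a group are separate cultures, so p-values measure the spread between libraries, which may be technical. Acetylation is not a measure of transcript or protein.

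Acute-phase proteins are plasma proteins whose production changes during infection and injury, chiefly in hepatocytes but also in macrophages and epithelium. Serum amyloid A proteins (Saa1, Saa2, Saa3) are apolipoproteins of high-density lipoprotein in the acute phase, with Saa3 known as the form made outside the liver, including by macrophages. Lcn2 is a lipocalin that captures bacterial siderophores and so withholds iron, Cp is the copper-carrying ferroxidase ceruloplasmin, Hp (haptoglobin) binds free haemoglobin, and Slpi inhibits neutrophil serine proteases. C/EBP factors, NF-kB and STAT3 are the textbook regulators of this gene class.

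The sequences before the starts are shown because Lcn2, Saa3 and Cp each have a CRE over a start, whereas Saa1 and Saa2 have none there and a CRE to their 5′ side. They are RefSeq windows on mm10, and 6 of the 7 genes matched this promoter set, which was searched on both strands for C/EBP (TTGCNNAA), AP-1 (TGANTCA), STAT (TTCNNNGAA), STAT6 (TTC and GAA with any 4 letters between) and NF-kB letters. Hp was not in the set. The 250 bases before the Lcn2 and Saa2 starts read, with C/EBP letters and, in Lcn2, a later STAT6 match in capitals:
Lcn2 (chr2:32387740-32387989, minus strand): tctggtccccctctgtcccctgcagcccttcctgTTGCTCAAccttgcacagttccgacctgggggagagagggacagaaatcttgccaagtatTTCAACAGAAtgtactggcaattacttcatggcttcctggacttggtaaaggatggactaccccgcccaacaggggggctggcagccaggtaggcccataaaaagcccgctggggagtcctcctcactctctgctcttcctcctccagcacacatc
Saa2 (chr7:46751583-46751832, plus strand): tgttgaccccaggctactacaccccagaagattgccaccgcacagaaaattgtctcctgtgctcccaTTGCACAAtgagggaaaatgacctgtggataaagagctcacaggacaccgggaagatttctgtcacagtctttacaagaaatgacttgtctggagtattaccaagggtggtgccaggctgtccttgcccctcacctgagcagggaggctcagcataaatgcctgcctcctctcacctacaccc
For Saa1, Saa3 and Cp, where predicted transcripts begin further 5′ and overlap the window, 30 bases around the C/EBP match in capitals are given:
Saa1 (chr7:46743144-46743173, minus strand): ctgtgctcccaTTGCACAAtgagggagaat
Saa3 (chr7:46715757-46715786, minus strand): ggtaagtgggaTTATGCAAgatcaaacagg
Cp (chr3:19957168-19957197, plus strand): attagttactcTTTTGCAAcattaaattgt
The C/EBP match began 182 bases before the start in Saa1, 183 in Saa2, 99 in Saa3, 216 in Lcn2 and 70 before the more 3′ of the Cp starts, and Slpi held a match 241 bases before its start. C/EBP letters were present in 10.8% of 32851 windows of the same length, STAT6 letters in 6.95%, AP-1 letters in 7.81%, STAT letters in 8.30% and NF-kB letters in 4.51%. No STAT or NF-kB match and 1 AP-1 match (TGATTCA, 177 bases before the more 5′ of the Cp starts in this set) were in the members' windows. A further annotated Cp start, outside this set, lies still further 5′. The Saa1 and Saa2 windows were identical at 287 of 301 aligned positions (95.3%), against 50.9% for Saa1 and Saa3. A match to letters is not evidence of binding.

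LPS raised acetylation at 14 of the 18 member CREs that had enough signal to be tested, and lowered none. The Saa cluster held 9 CREs from the Saal1 promoter to an intron of Hps5, and all 9 were called. Among 50697 tested CREs of the genome, 53.5% were called and 29% were called with a higher level at the largest difference. A call required an adjusted p under 0.01 in a moderated F-test (limma) over the 4 times against UT and a log2 difference over 1, where log2 differences are of value + 5 and so understate changes from low values. The values are scaled reads per CRE. Of the 18 tested members, 7 had a UT mean under 10 and passed the filter of a mean of 10 through their stimulated libraries, and 6 of these were called. Of the 11 members with a UT mean of at least 10, 8 were called. The 14 called CREs had both 4 h values above both UT values, and their largest log2 difference was at 4 h in each of the 14.

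The CRE over Saa3 (chr7:46713910-46720651, 6742 bp, centre in an intron) covers both annotated starts of the gene. It held 48 and 35 scaled reads in the UT libraries, 61 and 115 at 30 min of LPS, 191 and 176 at 1 h, 561 and 519 at 2 h and 1463 and 1245 at 4 h. No pair of neighbouring times overlapped. The mean went from 41.5 ± 9.19 to 1354 ± 154 (SD, n = 2), 32.6 times the UT level, and the log2 difference at 4 h was 4.88 ± 0.19 (SE, limma adjusted p = 1.92e-21). The CRE upstream of Saa3 (chr7:46723421-46725106, 4.6 kb before the nearer start, intergenic) had 3 and 3 scaled reads in UT cells and 309 and 265 at 4 h of LPS. Its intermediate values were 10 and 16 at 30 min, 67 and 53 at 1 h and 197 and 169 at 2 h, so that no pair of neighbouring times overlapped. The log2 difference was 1.15 ± 0.26 at 30 min (adjusted p = 0.000383) and 5.19 ± 0.26 at 4 h (adjusted p = 2.48e-18). The CRE at the Saa3 3′ end, with its centre inside the gene, held 17 and 16 scaled reads in UT cells and 63 and 48 at 4 h, a log2 difference of 1.48 ± 0.34 (adjusted p = 0.000297) that missed the call when the first 4 h replicate was left out.

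No CRE of the table covers the start of Saa1 or Saa2, the hepatic acute-phase forms. These genes point away from each other, and the stretch between them holds a pair of intergenic CREs. The one 2.8 kb before the Saa1 start (chr7:46745134-46746850) held 8 and 4 scaled reads in UT cells, 3 and 21 at 30 min of LPS, 34 and 39 at 1 h, 203 and 154 at 2 h and 435 and 458 at 4 h. The one 3.2 kb before the Saa2 start (chr7:46747821-46749481) held 4 and 2, then 10 and 10, 21 and 17, 130 and 126, and 430 and 313 at the same times. At 30 min the libraries upstream of Saa1 still overlapped the UT libraries and those upstream of Saa2 did not, and from 1 h on both CREs stood above UT cells. Their log2 differences at 4 h, 5.38 ± 0.33 (adjusted p = 5.91e-16) and 5.55 ± 0.29 (adjusted p = 3.9e-18), were the highest of the 21 members, and they differed by less than their standard errors. The CRE 2.6 kb behind the Saa2 start rose from 5 and 4 to 97 and 86 (log2 3.34 ± 0.37, adjusted p = 1.12e-09), although 19.8% of the 51-base words in it occur again in the genome, against 0 to 7.93% in the other members, so reads there depend on how repeats were placed.

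Acetylation also rose at the flanks of the cluster. A CRE 2.5 kb from the start of Saa4, the constitutive serum amyloid A, stayed at 36 and 28 scaled reads at 30 min and 36 and 27 at 1 h against 46 and 36 in UT cells. It then reached 108 and 82 at 2 h and 254 and 260 at 4 h, with a log2 difference of 2.52 ± 0.24 (adjusted p = 5.55e-11). A CRE in an intron of Hps5, 19.1 kb from the Saa2 start, went from 4 and 5 to 152 and 135 (3.97 ± 0.32, adjusted p = 6.31e-13). The promoter of Saal1, the gene on the other side of Saa3, changed least among the called CREs, from 39 and 55 to 113 and 100 (1.12 ± 0.23, adjusted p = 7.52e-05), and its call was lost without the first UT replicate.

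**Figure D1:**
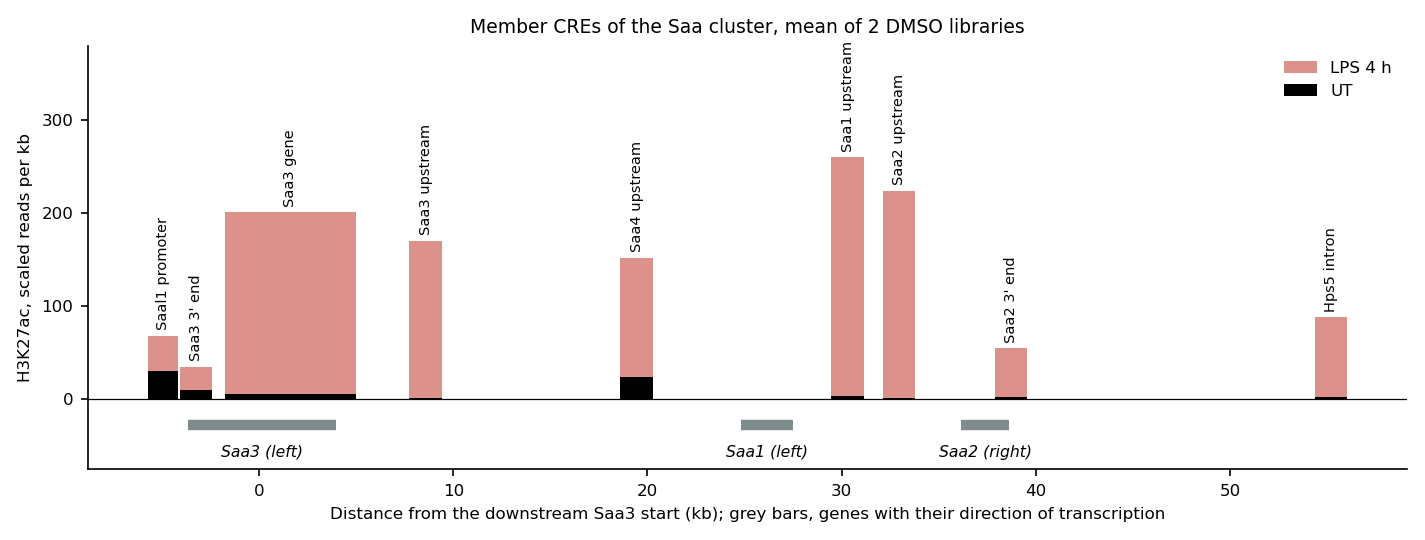
H3K27ac of the 9 member CREs around Saa3, Saa1 and Saa2 in scaled reads per kb of CRE (mean of 2 DMSO libraries, UT in black and LPS 4 h in red), against distance in kb from the more 3′ Saa3 start, with the genes as grey bars and bar widths to scale. Each of the 9 CREs stood higher at 4 h of LPS, up to 260 scaled reads per kb upstream of Saa1.

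Lcn2 has a CRE over its start (chr2:32387012-32390164, 3153 bp). Its values were 14 and 6 scaled reads in UT cells, 33 and 16 at 30 min, 76 and 68 at 1 h, 215 and 185 at 2 h and 519 and 487 at 4 h. Here too no pair of neighbouring times overlapped. The mean rose 50.3 times from 10 ± 5.66 to 503 ± 22.6 (SD, n = 2), a log2 difference of 5.13 ± 0.26 (limma adjusted p = 2.68e-18). Another CRE inside Lcn2, near its 3′ end, moved later and less, from 12 and 8 in UT cells to 37 and 27 at 2 h and 83 and 99 at 4 h (2.69 ± 0.35, adjusted p = 3.67e-08). The other 3 CREs near Lcn2 belong by position to its neighbours. The promoter of Ptges2, a prostaglandin E synthase gene, differed by 0.73 ± 0.14 at 4 h (adjusted p = 4.74e-05) and that of 1110008P14Rik by −0.78 ± 0.23 at 30 min (adjusted p = 0.00543), both within the log2 limit of 1, and an intergenic CRE behind Ptges2 was too low to test.

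Both CREs near Cp rose. The CRE 2.8 kb upstream of the gene (chr3:19953258-19954937) held 16 and 11 scaled reads in UT cells, 30 and 27 at 30 min, 125 and 90 at 1 h, 445 and 391 at 2 h and 592 and 552 at 4 h. The promoter CRE (chr3:19956256-19958173) held 26 and 23, then 30 and 34, 112 and 72, 339 and 473, and 402 and 454. Its 2 h and 4 h libraries overlapped, while those of the upstream CRE did not. At 4 h the log2 differences were 4.98 ± 0.21 upstream (adjusted p = 1.19e-20) and 3.87 ± 0.21 at the promoter (adjusted p = 2.78e-17).

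Hp had no CRE over its start. The nearest one, 6.7 kb upstream and intergenic (chr8:109585055-109586698), held 4 and 1 scaled reads in UT cells and 20 and 43 at 30 min of LPS. It continued at 53 and 36, 49 and 65, and 187 and 142 at 1 h, 2 h and 4 h, so the 30 min, 1 h and 2 h libraries overlapped and the 4 h libraries stood apart. This was the largest difference of any member at 30 min (2.24 ± 0.32, adjusted p = 3.48e-07), and it was 4.51 ± 0.32 at 4 h (adjusted p = 2.21e-14). The shared promoter of Dhx38 and Txnl4b, 14.2 kb from Hp, differed by 0.55 ± 0.12 at 30 min (adjusted p = 0.000347), within the limit of 1, and the other pair of CREs near Hp, in the gene Dhodh, was too low to test. Slpi had 1 CRE, 16.3 kb upstream, with 5 and 9 scaled reads in UT cells and 27 and 13 at 4 h of LPS. Its log2 difference of 1.02 ± 0.41 did not pass the F-test (adjusted p = 0.167), and a change at Slpi was not detectable at these low values.

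**Figure D2:**
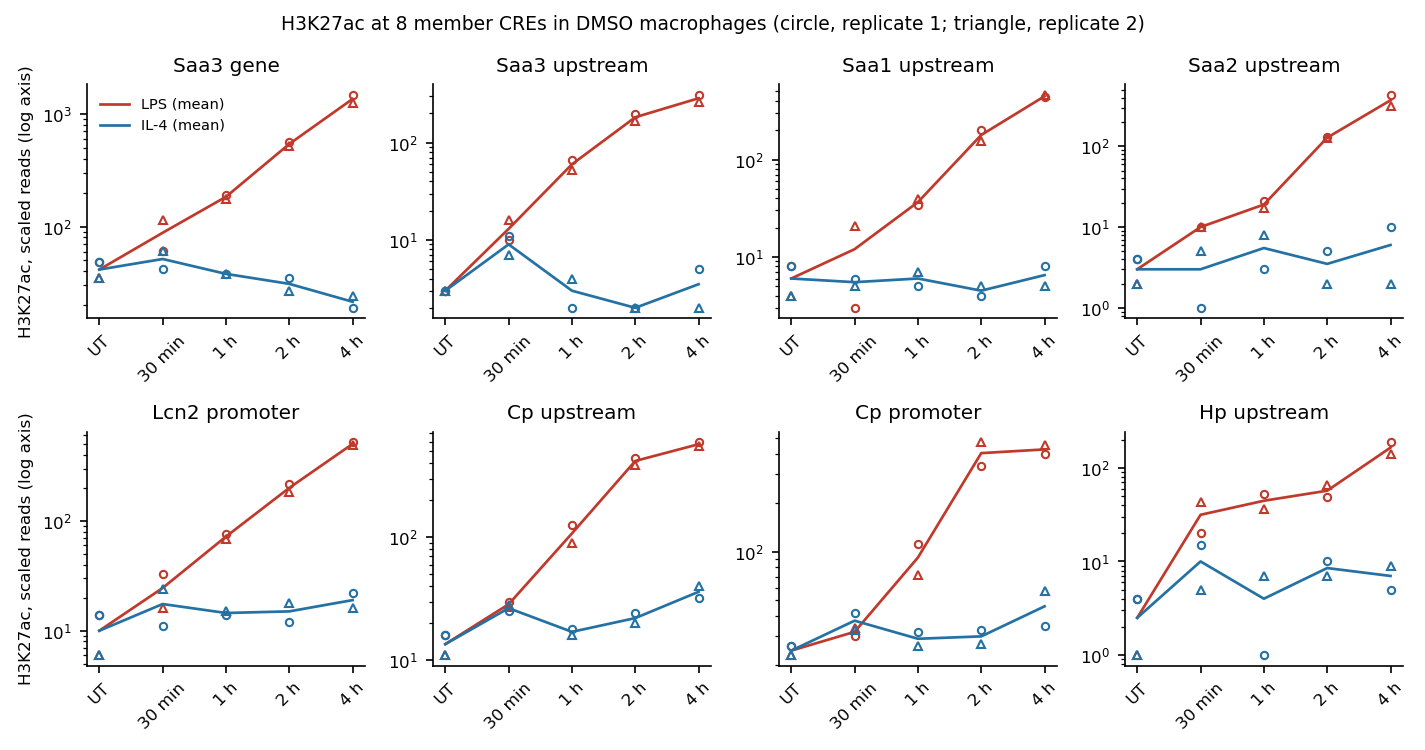
H3K27ac (scaled reads per CRE, log axis) over time after LPS (red) and IL-4 (blue) at 8 member CREs in DMSO cells, with each replicate as a symbol and lines through the means of 2. The LPS lines rise at all 8, to 1354 scaled reads over Saa3 and 503 at the Lcn2 promoter, and no IL-4 library exceeds 61.

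Per kb of CRE, the levels of the called CREs at 4 h of LPS ran in order from the Cp upstream CRE (340 scaled reads per kb) through those upstream of Saa1 (260) and Saa2 (224), the Cp promoter (223), the Saa3 gene (201), Saa3 upstream (170), the Lcn2 promoter (160), Saa4 upstream (152) and Hp upstream (100) to the Saa3 3′ end (34.6). The replicates of Cp upstream (352 and 329) lay above all others, and those of Saa1 upstream (253 and 267) overlapped those of Saa2 upstream (259 and 188). The Slpi CRE held 12.9 scaled reads per kb. In UT cells the called CREs held between 1.52 (Hp upstream) and 30.0 (Saal1 promoter) scaled reads per kb, and the Dhx38 and Txnl4b promoter, which was not called, held 101.

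The share of the gain from UT to 4 h that was present at 2 h was 94.5% at the Cp promoter, whose 2 h and 4 h libraries overlap, and 72.4% at the Cp upstream CRE. The CRE upstream of Saa3 had 63.4% at that time, Saa1 upstream 39.2%, the Lcn2 promoter 38.5%, the Saa3 gene 38%, Saa2 upstream 33.9%, Hp upstream 33.6% and Saa4 upstream 25%. Hp upstream had 17.9% at 30 min, whereas the 3 CREs over starts and those upstream of the Saa genes had at most 3.54%. Of the called CREs with small changes, the Saal1 promoter had 47.9% at 30 min and 86.6% at 2 h, and the Saa3 3′ end 12.8% and 52.6%. Over the 18 tested members the median log2 difference was 0.48 at 30 min, 1.23 at 1 h, 2.51 at 2 h and 3.61 at 4 h, beside 0.05, 0.09, 0.02 and 0.08 over all tested CREs.

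The steps between neighbouring times were tested directly in the same limma fit, a test chosen after the DMSO values had been seen. At an adjusted p under 0.01, 7 of 18 members rose from 30 min to 1 h (11% of all tested CREs), 10 rose from 1 h to 2 h (9.31%) and 8 rose from 2 h to 4 h (6.17%). The last step was 1.31 ± 0.19 over the Saa3 gene (adjusted p = 4.79e-06), 1.48 ± 0.29 upstream of Saa2 (adjusted p = 0.000285), 1.31 ± 0.26 at the Lcn2 promoter (adjusted p = 0.000413) and 1.45 ± 0.32 upstream of Hp (adjusted p = 0.00134). At Cp it was 0.45 ± 0.21 upstream (adjusted p = 0.141) and 0.09 ± 0.21 at the promoter (adjusted p = 0.831), and at Saa3 upstream 0.64 ± 0.26 (adjusted p = 0.0963). The difference in pace between genes was not itself tested.

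IL-4 moved none of the 10 testable members past the call, where 24.7% of all 47018 tested CREs were called, although 7 of the 10 had an unadjusted limma p under 0.05 at 1 or more times. The 11 other members, among them Saa1, Saa2 and Hp upstream, stayed too low under IL-4 to test. Over the Saa3 gene the values were 42 and 61 scaled reads at 30 min of IL-4, 38 and 38 at 1 h, 35 and 27 at 2 h and 19 and 24 at 4 h, against 48 and 35 in UT cells. The 4 h values lay below both UT values, with a log2 difference of −0.80 ± 0.28 (adjusted p = 0.0199, F-test adjusted p = 0.0116). At Cp upstream they were 25 and 28, 18 and 16, 24 and 20, and 32 and 40, against 16 and 11 in UT cells. The log2 difference there was 1.15 ± 0.32 at 4 h (adjusted p = 0.00301), but the F-test over the times gave an adjusted p of 0.0153. At the Lcn2 promoter IL-4 gave 22 and 16 at 4 h against 14 and 6 in UT cells (0.72 ± 0.37, adjusted p = 0.123).

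LPS and IL-4 were also compared with each other over the 18 DMSO libraries. Of 17 members tested, 14 were called, 13 of them higher after LPS and 1 lower, where 58.4% of all 50587 tested CREs were called, 29.2% higher and 29.2% lower at their largest difference. Of these 17, 7 were too low in UT and IL-4 cells to be tested after IL-4 and passed the filter through their LPS libraries, and all 7 were called higher. Of the other 10, 7 were called. At 4 h LPS exceeded IL-4 by 5.68 ± 0.23 on the log2 scale over the Saa3 gene (limma adjusted p = 1.01e-23), by 5.31 ± 0.37 upstream of Saa1 (adjusted p = 5.97e-16) and by 4.41 ± 0.31 at the Lcn2 promoter (adjusted p = 7.28e-16). At both Cp CREs the difference was largest at 2 h, 3.97 ± 0.24 upstream and 3.54 ± 0.25 at the promoter (adjusted p = 5.99e-18 and 4.5e-16). The 1 lower call was the 1110008P14Rik promoter near Lcn2, at 30 min (−1.10 ± 0.21, adjusted p = 3.19e-05), and this call was lost without the first LPS or the second IL-4 replicate of that time and with quantile normalization. The Saal1, Ptges2 and Dhx38 and Txnl4b promoters were not called.

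**Figure D3:**
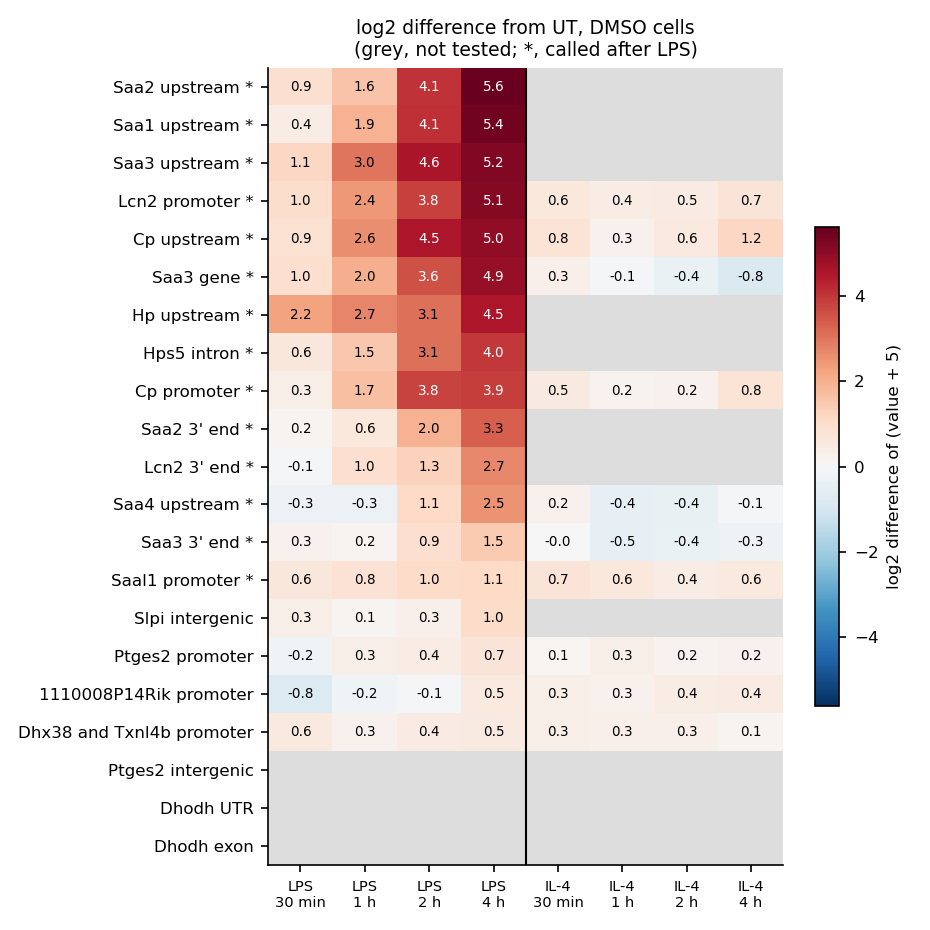
Difference from UT on the log2(value + 5) scale in DMSO cells at the 21 member CREs, for the 4 times after LPS (left) and after IL-4 (right), ordered by the LPS difference, with CREs too low to test in grey and CREs called after LPS marked by a star. The 14 called CREs deepen toward 4 h of LPS, while the IL-4 side ranges from −0.80 to 1.15.

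Libraries of CKIs differed from DMSO in depth and contrast before any effect of a compound was considered. Contrast, the median of the strongest 10% of CREs over that of the weakest 10%, was 53.0 to 134 in DMSO and 3.34 to 67.2 in CKI libraries, and reads in CREs, estimated from the spacing of the scaled values, were 2345581 to 5408907 in the 16 DMSO libraries with an estimate and 345208 to 6581857 in the 535 CKI libraries with one. In the column order of the table the CKIs fall into 6 runs of 8 to 10 compounds with DMSO outside them, so DMSO as a reference and run cannot be told apart. In UT cells the 73 CKI libraries held 49 to 307 scaled reads over the Saa3 gene (median 107), all above the DMSO values of 48 and 35. The part of contrast in this was not tested.

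LPS raised 12 members in the presence of the inhibitors. For each of 55 CKIs with both libraries, the UT library was subtracted from the 4 h library of the same CKI, without use of DMSO, and the mean over CKIs was tested with limma (call at an adjusted p under 0.05 and a log2 difference over 1). These 12 of 21 tested members were called higher, where 10.3% of all CREs were, and at these 12 the response was above 0 with 55 of 55 CKIs. The mean response was 3.63 ± 0.11 (SE) upstream of Saa3, 3.61 ± 0.12 upstream of Saa1, 3.39 ± 0.13 upstream of Saa2 and 3.26 ± 0.08 over the Saa3 gene. It was 3.19 ± 0.09 upstream of Cp, 2.98 ± 0.09 at the Lcn2 promoter, 2.43 ± 0.11 at the Cp promoter and 2.40 ± 0.10 upstream of Hp. Another 8 CREs passed the p but stayed within 1, among them the Slpi CRE (0.82 ± 0.13, higher with 47 of 55 CKIs, adjusted p = 2.57e-08), and the intergenic CRE behind Ptges2 did not pass.

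The DMSO response exceeded that of every CKI upstream of Saa1, Saa2, Saa3, Cp and Hp, over the Saa3 gene and at the Lcn2 promoter. Over the Saa3 gene it was 4.88 in DMSO against 1.51 to 4.21 among CKIs. Across the 55 CKIs the response over the Saa3 gene went with the contrast of the 4 h library (Pearson r = 0.594, adjusted permutation p = 0.00015, Spearman rho = 0.551, adjusted permutation p = 0.00015, 5 relations computed). It was 0.53 without the 2 CKIs farthest from the median contrast and 0.491 within runs, and it was positive in 5 of 6 runs. The response and the contrast share the 4 h library. For Saa1 upstream, the Lcn2 promoter, Cp upstream and Hp upstream r was 0.445, 0.408, 0.403 and 0.357 (adjusted permutation p = 0.0026, 0.00375, 0.00375 and 0.0094), and rho was 0.355, 0.422, 0.382 and 0.252 (adjusted permutation p = 0.0094, 0.00367, 0.00584 and 0.0641). Without the 2 farthest CKIs these r were 0.364, 0.327, 0.407 and 0.300, and within runs 0.350, 0.227, 0.309 and 0.260. The part of contrast in the response was not tested.

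Afatinib, an inhibitor of the EGF receptor family, had the lowest response at 7 of the 14 CREs called in DMSO, and 7 other compounds had it at 1 CRE each. Its responses were 0.04 upstream of Saa2, 0.53 upstream of Saa1, 0.73 upstream of Saa3, 0.81 at the Lcn2 promoter and 0.11 upstream of Hp. Its UT library already held 180 scaled reads over the Saa3 gene, 95 upstream of Saa2 and 191 at the Lcn2 promoter, the last being the highest of the 73 UT values there, and its 2 libraries at 4 h of LPS held 557 and 548 over the Saa3 gene. The contrast of these 3 libraries was 10.9, 13.3 and 7.72. Over the Saa3 gene the lowest responses were those of the p38 inhibitors Talmapimod (1.51) and Losmapimod (1.57), followed by Afatinib (1.59), and the highest those of Vandetanib (4.21), ONO4059analogue (4.19) and Tofacitinib (4.12). Talmapimod had the highest UT value there, 307, at a contrast of 7.02, and Losmapimod had a 4 h LPS library with a contrast of 4.37. At the Cp promoter PH797804, a further p38 inhibitor, gave 0.10 from 68 scaled reads in UT cells and 73 at 4 h, with a contrast of 14.7 and 3.37, while ONO4059analogue gave 4.16. None of these single compounds was tested for its response.

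**Figure D4:**
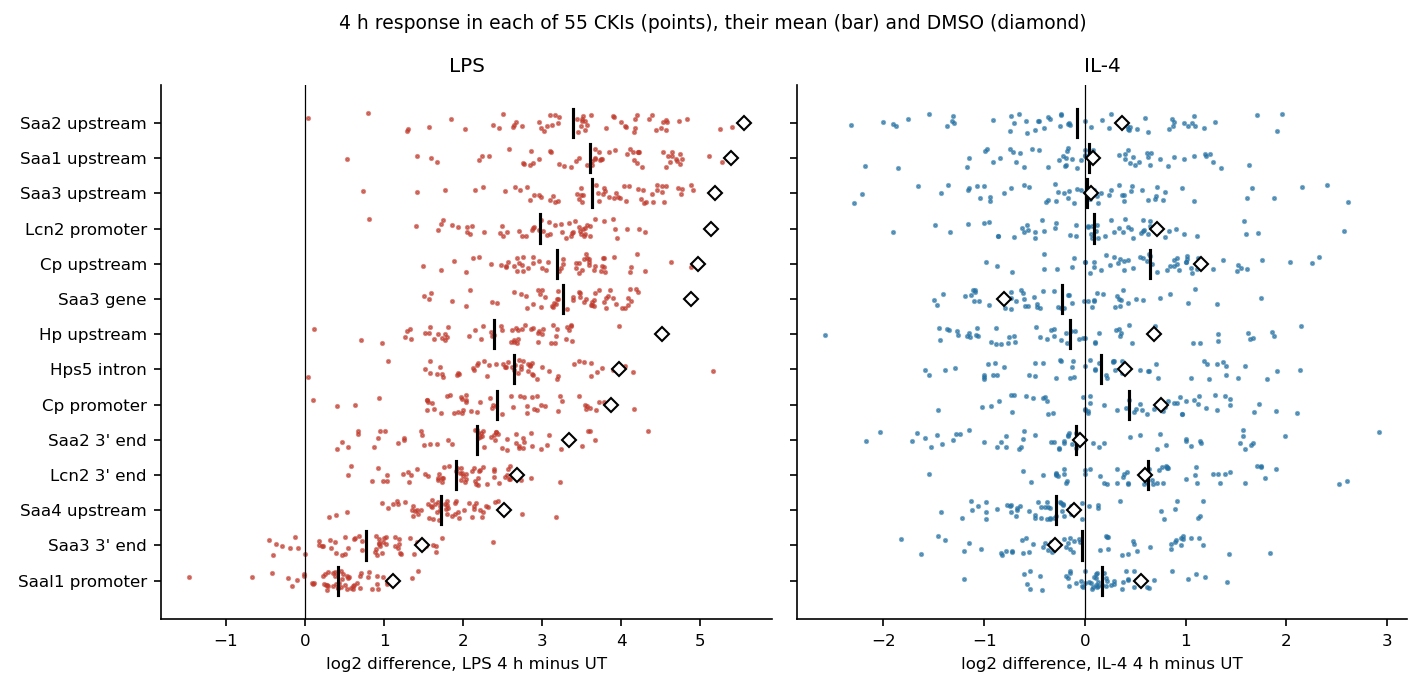
The 4 h response to LPS (left) and IL-4 (right), as the log2 difference from the UT library of the same compound, for each of 55 CKIs (points), their mean (bar) and DMSO (diamond), at the 14 CREs called after LPS in DMSO. For LPS 12 rows lie wholly above 0 and the diamond leads every point at 7 of them, while the IL-4 points straddle 0.

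The step from 2 h to 4 h was also tested in 53 CKIs with LPS libraries at 2 h and 4 h. From 2 h to 4 h the level rose by a mean of 1.40 ± 0.10 upstream of Saa2, 1.33 ± 0.09 upstream of Saa1 and 1.21 ± 0.07 over the Saa3 gene, higher with 49, 50 and 50 of 53 CKIs (limma adjusted p = 1.86e-22, 8.39e-23 and 4.47e-27). At the Lcn2 promoter the mean was 1.07 ± 0.07, upstream of Hp 0.86 ± 0.08, upstream of Saa3 0.74 ± 0.07, upstream of Cp 0.52 ± 0.06 and at the Cp promoter 0.39 ± 0.10, the last higher with 34 of 53 CKIs (adjusted p = 0.000596). Of all tested CREs 23.1% rose and 17.5% fell in this step at an adjusted p under 0.05. With Lenvatinib the level was lower at 4 h than at 2 h at all 8 of these CREs, going from 690 to 310 over the Saa3 gene, and with Talmapimod also at all 8, from 1381 to 884. TG100115 had a lower 4 h value at 5 of them, and no other CKI at more than 3. Lenvatinib and Talmapimod had a single library at each of these times. Over the Saa3 gene the 310 of Lenvatinib was the lowest of 57 CKI libraries at 4 h (median 1162). The 1381 of Talmapimod was the highest of 59 at 2 h (median 444). Whether these falls belong to the compounds or to single libraries was not tested.

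**Figure D5:**
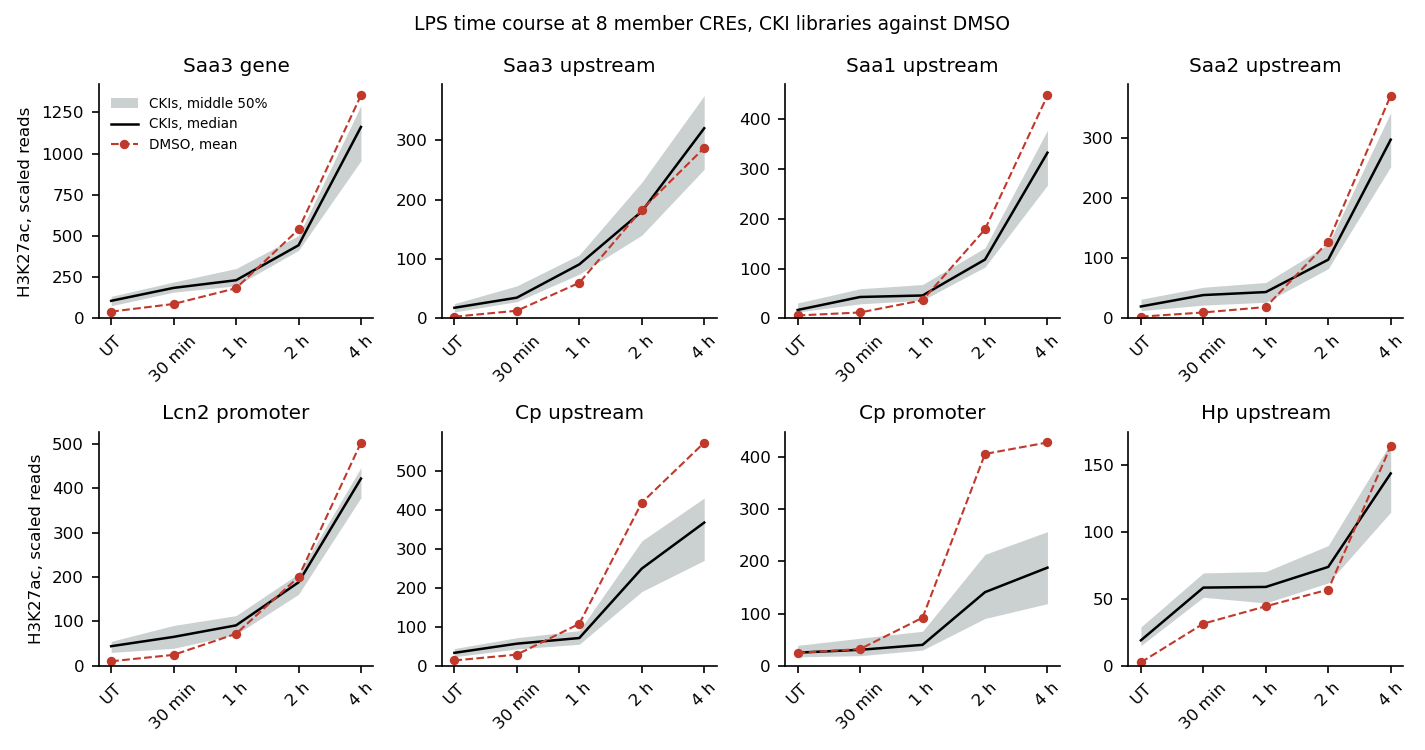
H3K27ac (scaled reads per CRE) over the LPS time course at 8 member CREs, with the median (black) and middle 50% (grey) of CKI libraries and the DMSO mean (red, n = 2). The CKI median starts above the DMSO mean at all 8 CREs, by least at the Cp promoter (25 against 24.5), and at 4 h it lies below the DMSO mean at 7, with 188 against 428 at the Cp promoter, and above it upstream of Saa3 (320 against 287).

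Each CKI was then set against DMSO over the whole time course, UT libraries included, as 1 limma coefficient per CKI (call at an adjusted p under 0.05 and a log2 difference over 0.5). After LPS 468 of 1218 pairs of a member CRE and a CKI were called higher (38.4%) and 34 lower (2.79%), beside 32.3% and 4.04% of all pairs in the genome. With quantile normalization the same counts were 43 higher and 31 lower, and with stimulated libraries only they were 287 higher and 46 lower. Contrast differed between these sets of libraries, as given above, and its part in the calls was not tested. Against the other CKIs of the same run, 3 pairs were higher and 4 lower, where 0.742% and 0.406% of all pairs were called, and 5 of these 7 belonged to PH797804, whose LPS and UT libraries had a contrast of 3.37 to 14.7. The other 2 were the CRE in the UTR of Dhodh, near Hp, with Pacritinib (1.25 ± 0.33, adjusted p = 0.0307) and Saa4 upstream with Mubritinib (−0.90 ± 0.23, adjusted p = 0.0214).

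After LPS the Cp promoter was lower than DMSO with 21 of 58 CKIs and higher with 0, with a median difference of −0.73, whereas the Cp upstream CRE, 2.8 kb from the start, had 2 higher and 1 lower and a median of −0.0013. The CKI libraries at 4 h held 54 to 460 scaled reads at the Cp promoter (median 188, 57 libraries) against 402 and 454 in DMSO, and 176 to 588 upstream (median 367) against 592 and 552. Within runs no CKI was called at the Cp promoter after LPS. A difference between DMSO and the CKI libraries as sets cannot be told apart from an effect of inhibition here.

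After IL-4 727 of 1218 pairs were called higher than DMSO (59.7%) and 3 lower (0.246%), beside 36.2% and 3.03% of all pairs. Quantile normalization gave 84 higher and 14 lower, and stimulated libraries only gave 606 higher and 4 lower. The Saa3 gene was called higher than DMSO with 58 of 58 CKIs, and higher than its own run with 1, PH797804. The fit includes the UT libraries, in which all CKI values over the Saa3 gene already lay above DMSO. Against their own run 13 pairs were higher and 4 lower, where 0.848% and 0.4% of all pairs were called, and 12 of the 17 belonged to PH797804. Among the rest was Filgotinib, a JAK1 inhibitor, at the Cp promoter, with a difference from its run of −1.35 ± 0.27 (adjusted p = 0.00105) and from DMSO of −1.27 ± 0.32 (adjusted p = 0.00039). Its IL-4 libraries held 23 scaled reads there at 30 min, 9 at 1 h, 6 at 2 h and 6 at 4 h, and its UT libraries 14 and 8, against 35 and 57 at 4 h of IL-4 in DMSO. Those UT values already lay below both UT values of DMSO at this CRE. Each IL-4 time of Filgotinib had a single library, and values this low rest on few reads. The other 4 were AMG208 at Cp upstream (−0.93 ± 0.27, adjusted p = 0.0326), BGT226 at the Lcn2 3′ end (−0.74 ± 0.27, adjusted p = 0.0388), and Omipalisib (0.53 ± 0.16, adjusted p = 0.0225) and Vatalanib (−0.62 ± 0.16, adjusted p = 0.0305) at the Saal1 promoter.

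The mean 4 h response to IL-4 across 55 CKIs passed the call at none of 21 members, where 3.38% of all CREs were called higher and 2.24% lower, and 9 had an adjusted p under 0.05 within the log2 limit. Cp upstream was among these (0.65 ± 0.10, higher with 45 of 55 CKIs, limma adjusted p = 1.56e-08), and so was the Lcn2 3′ end (0.62 ± 0.11, 41 of 55, adjusted p = 7.08e-07). Others were the Cp promoter (0.43 ± 0.11, 38 of 55, adjusted p = 0.00048) and Saa4 upstream (−0.29 ± 0.08, higher with 11 of 55, adjusted p = 0.00212). Over the Saa3 gene the mean was −0.23 ± 0.09 (higher with 21 of 55, adjusted p = 0.020), and −0.16 with quantile normalization (adjusted p = 0.081).

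Inhibitors were grouped by designated target into JAK (6 CKIs), MEK (3), p38 (4) and PI3K/mTOR (5) and set against the other 40 with run as a factor. The other 40 are not free of compounds that act on these families. TG100572, for example, is among them, and the study used it at its concentration for the JAK family kinase TYK2. After LPS no member was called in any class (adjusted p under 0.05, limma), where 0% of all CREs were called for JAK, 0% for MEK, 0% for p38 and 2.22% for PI3K/mTOR. At an unadjusted p under 0.05 there were 1 of 21 members for JAK, 0 for MEK, 3 for p38 and 1 for PI3K/mTOR. The smallest adjusted p was that of p38 inhibitors at the Saal1 promoter (−0.54 ± 0.13, adjusted p = 0.14). The 4 p38 inhibitors spanned −1.30 to 0.17 there on the log2 scale. PH797804, whose low contrast is given above, was at −1.25 ± 0.20 against its run at this CRE. After IL-4 no member was called either, where 0.00338%, 0.0997%, 0% and 2.19% of all CREs were called for JAK, MEK, p38 and PI3K/mTOR, and 3, 0, 0 and 1 members had an unadjusted p under 0.05. The Cp promoter was at −0.47 ± 0.16 with JAK inhibitors (adjusted p = 0.472) and at −0.48 ± 0.17 with PI3K/mTOR inhibitors (adjusted p = 0.13).

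Other genes of the response were read at the CRE nearest their start, from lists that hold none of the 7 genes. Of 24 other acute-phase genes 5 had such a CRE, 4 could be tested after LPS and 3 rose, namely Cfb (complement factor B, 4.91 ± 0.26), Serpina3f (a serine protease inhibitor, 4.34 ± 0.27) and C3 (the central complement component, 3.22 ± 0.19). Serpina3f and C3 were also called after IL-4 (3.02 ± 0.26 and 2.23 ± 0.23, of 3 tested), the stimulus that moved no member past the call. Of 7 other antimicrobial and antiprotease genes tested, 3 rose after LPS, led by the cathelicidin gene Camp (3.97 ± 0.27), and 2 fell, lysozyme Lyz2 (−2.29 ± 0.13) and the metal transporter Slc11a1 (−1.38 ± 0.14). Over all tested CREs 29% were called higher and 24.6% lower. Of 18 regulators 10 rose and 5 fell, with the cytokine gene Il6 at 4.20 ± 0.15, Il1rn at 2.93 ± 0.11, Il1b at 2.71 ± 0.13 and Cebpa, a C/EBP factor, at −2.54 ± 0.24. The lowest UT mean was 8 in the acute-phase list (median 8.5 over 5 CREs), 4.5 in the antimicrobial list and 7 among regulators. Tested CREs with a UT mean under 10 passed the filter through their stimulated libraries, so the calls in these lists are partly selected for a rise.

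Genes that handle iron, haem and haemoglobin, on which Lcn2, Cp and Hp also act, were read in the same way. Of 12 tested after LPS 1 rose, the iron importer Slc11a2 (2.61 ± 0.10), and 7 fell, among them transferrin Trf (−2.80 ± 0.22), the haemopexin receptor Lrp1 (−2.57 ± 0.15) and the iron exporter ferroportin Slc40a1 (−2.02 ± 0.25). Of 9 receptors and protease partners of the members 2 rose and 3 fell, with Fpr2, a formyl peptide receptor that serum amyloid A is known to engage, at 4.62 ± 0.16, Tlr2 at 1.68 ± 0.09, Itgam at −2.21 ± 0.15 and P2rx7 at −2.17 ± 0.18. The median of the largest difference was 3.78 in the acute-phase list, 0.87 in the antimicrobial list, 1.06 among regulators, −1.05 in the iron list and −0.83 among partners, beside 0.37 over all tested CREs. The acute-phase, antimicrobial and regulator medians include CREs that passed the filter through their stimulated libraries. After IL-4 the counts higher and lower were 1 and 1 of 5 antimicrobial genes, 6 and 0 of 17 regulators, 1 and 2 of 12 iron genes and 0 and 3 of 9 partners, beside 13.6% and 11% of all tested CREs.

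Macrophage identity was checked at gene starts. All 6 macrophage markers had a CRE, at 226 to 2082 scaled reads in UT cells, and after LPS 4 of them fell and none rose. None of 6 hepatocyte and none of 6 lymphocyte markers had a CRE at a start, and 1 of 4 fibroblast markers did, at 3.5 scaled reads. Of 8 neutrophil markers 4 had one, while Ltf, Ly6g, Elane and Mpo had none. Their summed level was 507 to 517 in UT cells and 1050 to 1190 at 4 h of LPS, with Camp (3.97 ± 0.27), Csf3r (1.35 ± 0.11) and Cxcr2 (1.31 ± 0.34) called higher, and Camp is also in the antimicrobial list. The lowest UT mean of these neutrophil CREs was 4.5, which passed the filter through the stimulated libraries. The part of other cells in the members' change was not tested.

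Among promoter CREs of protein-coding genes elsewhere in the genome, those most like the members over the 9 DMSO group means were Zc2hc1a (Pearson r = 0.982), Il15ra (0.979) and Ms4a4c (0.978) for the Saa3 gene CRE, out of 11056. For the Lcn2 promoter they were Npepps (0.991), Plpp1 (0.991) and Cfb (0.989), out of 11035, and for the Slpi CRE Rab1a (0.976), Chrm3 (0.947) and Vipas39 (0.939), out of 11044. These are descriptions over 9 points that share their libraries. Pearson r takes no account of the size of a change. At 4 h of LPS the log2 difference was 1.42 at Zc2hc1a and 3.31 at Ms4a4c, beside 4.88 over Saa3. It was 1.27 at Npepps and 4.91 at Cfb, beside 5.13 at the Lcn2 promoter. The Slpi CRE did not pass the F-test after LPS, so its matches may follow the spread of low values.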

How the data were processed

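H3K27ac ChIP-seq libraries of BMDMs were analysed from 1 table of 59190 CREs and 564 libraries. The authors removed adapters, trimmed reads to 51 bases, mapped them to mm10 with ShortStack (the submitters' notes also name Bowtie and SAMtools), counted reads within a fixed distance of ATAC-seq summits and scaled each library on invariant peaks. The deposited values are normalized reads rounded to whole numbers, so they were treated as a score, and count models were not applied. The CREs of the table vary in width, with a median of 1652 bp, so they are not all that fixed window, and how the listed ends relate to it is not given. Values at repeated sequence depend on how ShortStack placed reads that match several positions. UT samples are named for time 0 in their titles and for 4 h without stimulus in their labels.

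Groups came from the treatment labels, and a title suffix b was taken as a further library of a group. A fit kept CREs whose mean across its libraries reached 10 and used limma 3.58.1 (R 4.3.3) on log2(value + 5), with a mean trend and Benjamini-Hochberg adjustment over all tested CREs, using the 10 DMSO libraries of a stimulus and UT, all 18 for LPS against IL-4, and all LPS or IL-4 and UT libraries for CKIs (time and compound as factors). The study used an impulse model for the time courses. Most CKIs have 1 library per time, so their spread came from all compounds together. Correlations were tested with 100000 permutations. Tables and annotation were handled with pandas 2.3.3, numpy 2.4.6 and scipy 1.17.1.

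The members, gene lists and tests were chosen with earlier results of these data known. Values were to be given in each DMSO library for the CRE nearest a start of each gene and for the called CREs with the largest differences, up to 3 per gene after LPS and 1 after IL-4, and up to 4 called CREs per gene list, with all other members by range or count. The steps between times, the tests of 2 h against 4 h across CKIs and the motif windows shown as 30 bases were chosen after DMSO values were seen. Same-numbered DMSO replicates did not deviate together (correlation of deviations −0.087 to 0.066 over 36 pairs of groups), so the numbers were not used as pairs. Alternatives were other pseudocounts (1 and 20), no filter, quantile normalization, leaving out each replicate, a replicate block, windows of 10 and 50 kb and other references.

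The fits were tested on simulated data. In the LPS time course 17 of 99 CREs changed by 1 on the log2 scale and 83 of 100 changed by 2 were recovered among 49955, and 1 CKI against its run gave 58 of 100 changed by −1 and 99 of 100 changed by −2 among 59157.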

Additional observations from a re-analysis of the deposited data

Results flagged for a closer look

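In 48 groups of compounds and CREs of 4 to 6 values, 1 value stood apart by Dixon's ratio, which flags about 5 in 100 groups by chance. Among the 4 p38 inhibitors after LPS, Talmapimod had the highest level at the Lcn2 promoter, 0.739 on the log2 scale above the mean of CKIs over the LPS times, against −0.022 for the next inhibitor. The ratio of this gap to the range was 0.893, above Dixon's 95% limit for 4 values. At the Lcn2 promoter Talmapimod held 264 scaled reads at 1 h and 455 at 2 h, the highest of 63 and 59 CKI libraries. At 4 h it held 383, below the CKI median of 422. Each of these values comes from a single library, and the median contrast of its LPS libraries was 20.3.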

How the results depend on the processing

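Counts of calls stayed within 1.5 times of the reported ones in 102 of 110 recomputed counts, and no named difference changed direction. LPS calls numbered 13 to 14 without single replicates, 13 with a pseudocount of 20 (the Saal1 promoter was lost), 17 with a log2 limit of 0.5 and 14 with a replicate block. LPS against IL-4 gave 13 to 15 calls without single replicates, and with the replicate block 14, and IL-4 0 in both cases. The block changed no other call. IL-4 calls numbered 2 within 50 kb and 1 (Cp upstream) when the contrast was fitted in all 18 DMSO libraries. The 4 h IL-4 difference at Cp upstream was 1.01 (limma adjusted p = 0.0441) without the second 4 h IL-4 replicate and 0.96 (adjusted p = 0.0635) without the second UT replicate. Over the Saa3 gene it was −0.90 with quantile normalization (adjusted p = 0.00624).

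Counts of CKI pairs that differed from DMSO depended most on the setting. After LPS, 502 in all, they became 74 with quantile normalization, 333 with stimulated libraries only, 7 against the same run, and 301 to 414 without either DMSO replicate number, the lower without replicate 2. After IL-4, 730 in all, they became 98, 17 against the same run and 618 to 635 without either number. The LPS response across CKIs kept 12 calls without Lenvatinib and Talmapimod and had 11 at 2 h and 13 (Slpi gained) in the 42 CKIs with contrast of at least 10 in both libraries. Leaving out PH797804 left 461 pairs higher and 30 lower after LPS. Leaving out these compounds and the limit on contrast were chosen after seeing the data. The causes were not tested. Low values limit Slpi, Hp upstream and the Saa CREs in UT and IL-4 cells, where the pseudocount sets part of each log2 difference.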

Other observations

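Compounds with the same designated target kinase family gave unequal 4 h LPS responses at the members, at doses that differ, so the values stand side by side without a comparison. Over the Saa3 gene the p38 inhibitors gave 1.51 (Talmapimod), 1.57 (Losmapimod), 2.09 (PH797804) and 3.72 (VX702), and upstream of Saa1 1.60, 1.42, 1.67 and 5.11 in the same order. At the Lcn2 promoter Losmapimod gave 3.30 and Talmapimod 1.41. The lowest contrast among the libraries named in the report was 7.02 for Talmapimod, 4.37 for Losmapimod and 3.37 for PH797804, and its part in these values was not tested. The JAK inhibitors spanned 2.81 (BMS911543) to 4.12 (Tofacitinib) over the Saa3 gene and 1.71 (Ruxolitinib) to 3.68 (Tofacitinib) at the Cp promoter, while Ruxolitinib gave 3.90 upstream of Cp. The MEK inhibitors Pimasertib, Refametinib and Selumetinib gave 3.39, 4.09 and 4.01 over the Saa3 gene.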
